A study of Homo sapiens with 4 samples.

Results

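The genes described here encode the enzymes that charge transfer RNAs with amino acids (aminoacyl-tRNA synthetases) and the enzymes that make serine and proline and pass on one-carbon units and sulphur. They were chosen by name from a list of 51, which was made with earlier results of these data known. A gene with several probe sets was represented by the brightest. Of the 51, 26 were measured out of 14884 genes in all. These are 17 of 19 cytosolic synthetases and 9 of 16 genes of serine, one-carbon, proline, aminotransferase and sulphur metabolism. None of the 16 mitochondrial synthetases (0 of 16) carries a gene name in the platform annotation used, so a comparison of cytosolic with mitochondrial synthetases was not analysed here. FARSA, FARSB, MTHFD1, MTHFD2, ALDH1L2, ALDH18A1, GPT2, GOT1 and GOT2 were likewise not analysed here.

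Transcript levels came from 4 whole-transcript arrays of the human colon carcinoma cells LS411N-5FU-R, derived from the line LS411N by selection for resistance to 5-fluorouracil, an antimetabolite used against colorectal cancer. The control group (0 nM, 2 arrays) grew for 3 days with no treatment. The treated group (2 arrays) grew for 3 days in 50 nM of verticillin A. Verticillin A is a fungal metabolite, and the series title names trimethylation of histone H3 lysine 9 and chemoresistance as its subjects. All arrays are of the resistant line, so nothing here compares it with its parent, and a single line stands for each condition. Separate cultures are not named in the labels, and p-values therefore reflect the spread between 2 arrays a group, which could be purely technical. Values are log2 levels normalized by the authors to nearly the same distribution on each array, with array medians of 4.59 to 4.62 over all probe sets. In bulk RNA of this kind, fewer cells of a type and less RNA per cell cannot be told apart. Of 12 listed colonic epithelial markers 9 were measured. EPCAM and KRT18 read 10.94 to 11.13 and 10.29 to 10.45. KRT19 read 8.13 to 8.69, KRT8 6.75 to 7.04, VIL1 5.51 to 6.22 and CDX2 5.19 to 5.53. KRT20 and GPA33 lay between 4.42 and 4.78, near the array median, and CDX1 between 3.96 and 4.17, below it. With verticillin A, VIL1 fell by 0.62 (limma adjusted p = 0.0167) and KRT19 rose by 0.44 (adjusted p = 0.0493) on the log2 scale. Their part in the results below was not tested. Of the other listed markers, 1 of 5 for fibroblasts, 2 of 5 for leukocytes and 2 of 3 for endothelium were measured. These had mean levels of 3.45 to 4.60, and other cell types were thus only partly examined.

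Each aminoacyl-tRNA synthetase joins 1 amino acid to its matching tRNAs (EPRS1 joins a pair of them), and the charged tRNAs feed the ribosome. When amino acids run short, uncharged tRNA activates the kinase GCN2 (EIF2AK4), which phosphorylates eIF2 and favours translation of the transcription factor ATF4. ATF4 is known to activate many synthetase genes together with genes of serine, proline and asparagine synthesis, by binding amino acid response elements near their starts. Serine made from a glycolytic intermediate by PHGDH, PSAT1 and PSPH is also the main source of one-carbon units for nucleotide synthesis, the process that 5-fluorouracil disturbs.

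With verticillin A, 16 of the 26 measured genes fell and 0 rose, at an adjusted p (limma, Benjamini-Hochberg over all genes) under 0.05. The background was 8.65% of all 14884 genes called, 5.1% lower and 3.55% higher. Because the list was made with earlier results of these data known, its distance from this background is no independent evidence. The genes described are bright, with 25 of 26 above the median level of all genes, and among the 7442 brighter genes 8.63% were called lower and 5.94% higher. The median log2 change (verticillin A minus control) was -0.39 over the 26 genes and -0.01 over all genes. Of the cytosolic synthetases 10 of 17 fell (median -0.38), and of the metabolic genes 6 of 9 fell (median -0.40). Both treated arrays lay below both control arrays for 21 of the 26 genes and above them for 3, against 29.1% and 25.7% of all genes, and the groups overlapped for 2. The calls rest on 4 arrays. When control replicate 1 or control replicate 2 was left out, limma called 0 of the 26 lower, as it called 0 of all genes, and without verticillin A replicate 1 or 2 it called 2 and 3. With all 4 arrays, 26.7% of all genes had an unadjusted limma p under 0.05. With any 1 array left out, the log2 changes of the 16 were 0.835 to 1.16 times the values from all arrays. These ratios are no separate support, because genes pass only with little spread within groups for their change. The signs of the 16 could not turn in these fits, because both treated arrays lay below both control arrays in each gene. No gene of the 16 passed when all 53617 probe sets were fitted and adjusted over (smallest adjusted p 0.0515). All 16 had an unadjusted limma p under 0.05 in that fit, as did 3128 of all 14884 genes. That is no separate support, because the 16 were picked by their p on the same arrays and log2 changes.

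**Figure D1:**
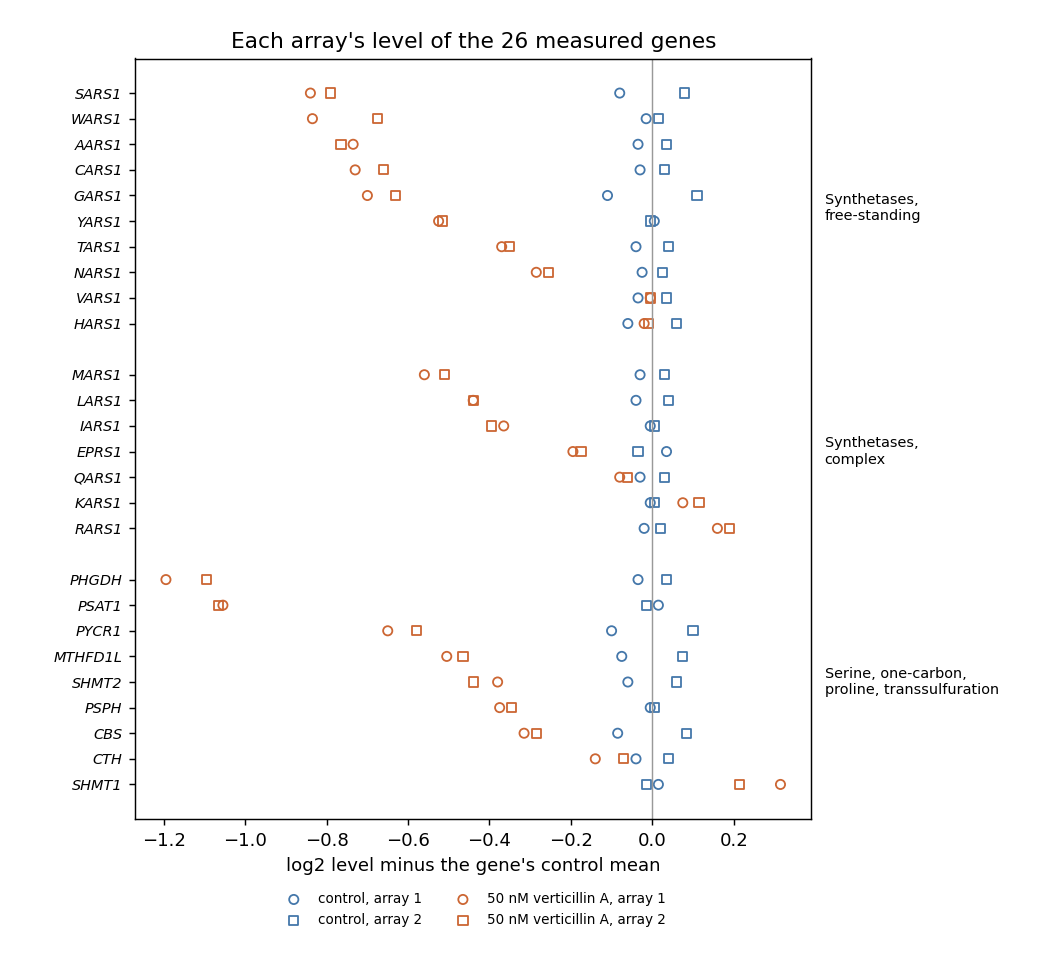
Each array's log2 level of the 26 measured genes minus that gene's control mean (x axis) by gene (y axis), with control arrays in blue and arrays with 50 nM verticillin A in orange. The treated arrays lie below both control arrays for 21 genes, furthest for PHGDH and PSAT1, and above them for RARS1, KARS1 and SHMT1.

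**Figure D2:**
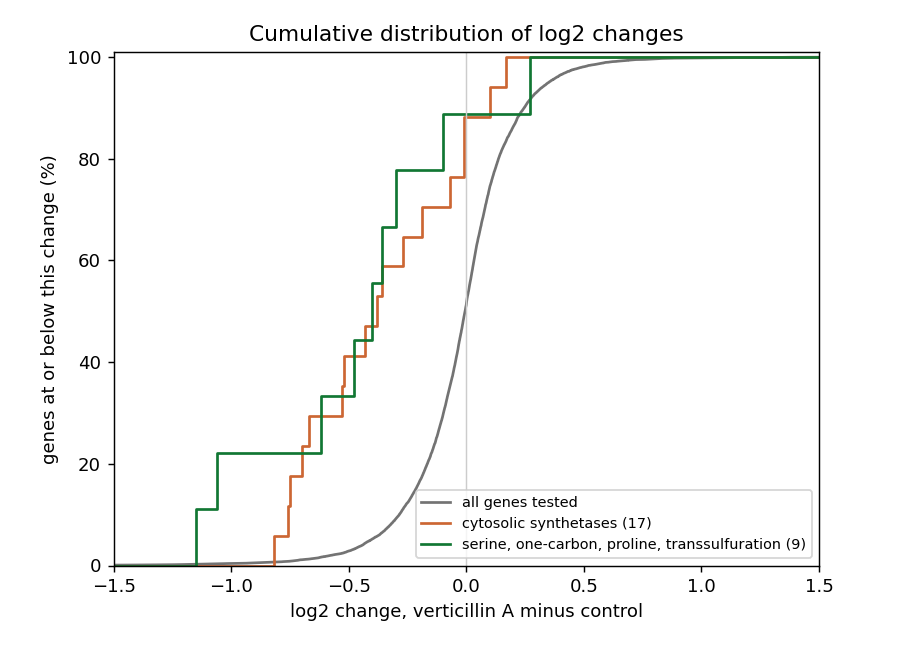
Percentage of genes at or below each log2 change (x axis) for all 14884 genes tested, the 17 cytosolic synthetases and the 9 metabolic genes. The curves of both gene groups lie to the left of all genes over most of the range, with medians of -0.38 and -0.40 against -0.01.

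Promoter sequence was examined because ATF4 acts through a short element. The core searched was TGATGNAA on both strands (TTNCATCA when read on the other strand), in the 250 bases upstream of each gene start of the RefSeq promoter table (build GRCh38.p14). Of the 26 genes, 20 have a promoter there. A whole match lay upstream in 4 of the 11 genes that fell and have a promoter (AARS1, GARS1, MTHFD1L and IARS1). It did so in 0 of the 9 that did not pass. The background was 2.83% of the 10749 tested genes with a promoter and 3.16% of the 570 such genes called lower. Both shares count the measured genes described here, and the 570 include the 11 that fell. Of the listed genes that were not measured, 21 have a promoter and 2 of these (9.52%) had a match. Whether matches go with the falls was not tested. Taking in the 50 bases from the start onward, a window added after the matches were seen, CARS1, MARS1 and TARS1 also had a match, making 7 of 11, and NARS1 was the single match among the 9 that did not pass. In that wider window 3.22% of tested genes, 4.74% of genes called lower and 9.52% of the 21 listed genes not measured had a match. The tested genes and those called lower again include the genes described here. A match is a run of letters and no measure of binding, and genes with several starts had more than 1 chance of a match.

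The matches are shown with 10 bases on each side, 5′ to 3′ on the gene's strand, so that the shared core and its orientation can be compared. Capitals mark the 8 matching bases.
AARS1 (chr16:70289676-70289703, minus strand): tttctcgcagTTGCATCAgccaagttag
CARS1 (chr11:3057408-3057435, minus strand): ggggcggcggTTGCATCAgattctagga
GARS1 (chr7:30594835-30594862, plus strand): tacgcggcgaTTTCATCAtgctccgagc
MARS1 (chr12:57488054-57488081, plus strand): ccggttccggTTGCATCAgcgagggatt
IARS1 (chr9:92293693-92293720, minus strand): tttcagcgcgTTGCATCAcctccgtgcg
TARS1 (chr5:33440957-33440984, plus strand): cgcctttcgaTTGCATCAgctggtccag
NARS1 (chr18:57621805-57621832, minus strand): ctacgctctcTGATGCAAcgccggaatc
MTHFD1L (chr6:150866347-150866374, plus strand): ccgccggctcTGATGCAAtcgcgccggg
The synthetase genes AARS1, CARS1, MARS1, IARS1 and TARS1 carry the same 8 letters, TTGCATCA, and NARS1 and MTHFD1L carry the reverse complement, TGATGCAA. GARS1 differs from them at the free base of the core. The match begins 187 bases before the start in AARS1, 33 bases before the listed second start of GARS1 and 13 bases before the start in IARS1. It spans the start itself in MARS1 and a listed second start in CARS1, beginning 4 and 2 bases before it, while the matches of TARS1 and NARS1 lie wholly after a start. MTHFD1L has 4 listed starts, and its match begins 129 and 90 bases before a pair of them and 24 bases after another.

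**Figure D3:**
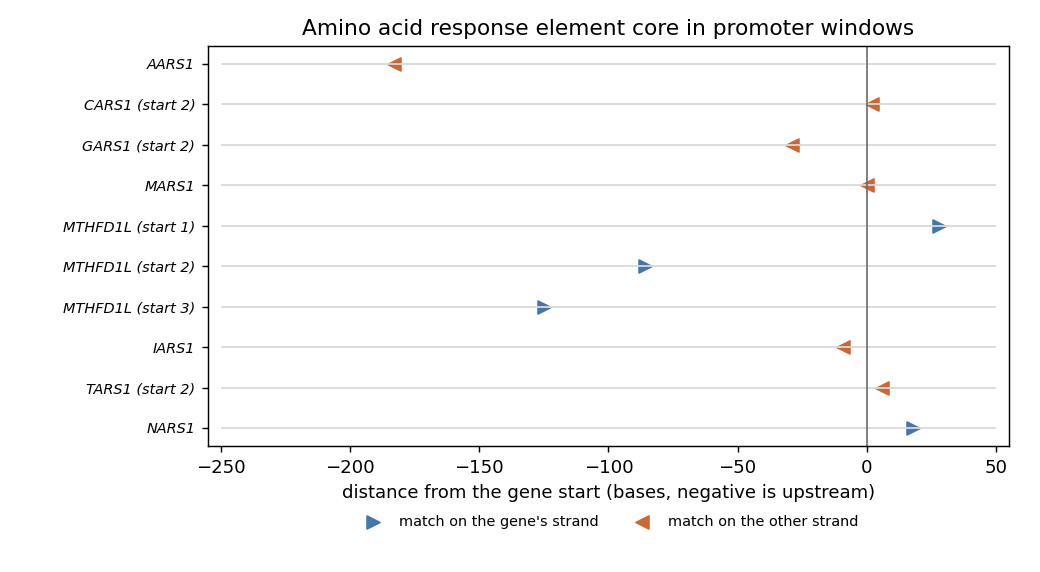
Position of each match to the amino acid response element core relative to the listed gene start (x axis, bases) for genes with a match (y axis, ordered from the deepest fall at the top), with triangles pointing right for matches on the gene's strand and left for the other strand. The matches of AARS1, GARS1 and IARS1 lie upstream, those of CARS1 and MARS1 span the start, and that of MTHFD1L lies upstream of 2 listed starts and 24 bases after another.

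The 250 upstream bases of AARS1, which holds the match, and of PHGDH, the gene with the deepest fall and no match in this window, are given in full with any match in capitals.
AARS1 (chr16:70289507-70289756, minus strand): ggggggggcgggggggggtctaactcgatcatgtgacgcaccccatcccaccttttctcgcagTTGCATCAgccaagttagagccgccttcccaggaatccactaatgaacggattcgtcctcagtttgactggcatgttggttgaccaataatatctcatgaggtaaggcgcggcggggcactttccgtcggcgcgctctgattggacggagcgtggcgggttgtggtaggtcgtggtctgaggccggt
PHGDH (chr1:119711684-119711933, plus strand): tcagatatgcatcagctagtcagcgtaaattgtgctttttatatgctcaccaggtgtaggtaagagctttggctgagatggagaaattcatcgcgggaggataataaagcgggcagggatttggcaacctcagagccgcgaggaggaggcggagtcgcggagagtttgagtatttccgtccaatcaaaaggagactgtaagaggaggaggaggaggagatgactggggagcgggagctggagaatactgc
No match in PHGDH says only that these letters are not in this window.

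Serine synthesis held the deepest falls. PHGDH, the dehydrogenase that commits 3-phosphoglycerate to serine, read 8.88 and 8.95 on the control arrays and 7.72 and 7.82 on the treated arrays. Both treated arrays were more than 1 log2 unit below both control arrays, and the gene was 2.22-fold lower (log2 change -1.15 ± 0.076, SE, adjusted p = 0.00617 in limma), rank 37 among the falls of all 14884 genes. PSAT1, the aminotransferase of the next step, read 11.79 and 11.76 in control and 10.72 and 10.71 with verticillin A. Its arrays differed within groups by 0.03 at most, and it was 2.08-fold lower (-1.06 ± 0.066, adjusted p = 0.00532). PSPH, the phosphatase that releases serine, read 9.48 and 9.49 in control against 9.11 and 9.14, again without overlap, but fell less (1.28-fold lower, adjusted p = 0.0361). The 95% interval of its log2 change, -0.52 to -0.19, does not reach those of PHGDH (-1.34 to -0.96) and PSAT1 (-1.22 to -0.89), though differences between genes were not tested. The genes of all 3 steps of the pathway thus fell.

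Both measured one-carbon genes of mitochondria fell, and the cytosolic SHMT1 did not pass. SHMT2, the mitochondrial hydroxymethyltransferase that takes a one-carbon unit from serine, read 7.56 and 7.68 in control and 7.24 and 7.18 with verticillin A, a 1.32-fold fall (-0.40 ± 0.077, adjusted p = 0.0387). MTHFD1L, the mitochondrial enzyme that releases formate, read 9.53 and 9.68 against 9.10 and 9.14, a 1.40-fold fall (-0.48 ± 0.081, adjusted p = 0.0295). In both genes the treated arrays lay below both control arrays. SHMT1, the cytosolic counterpart of SHMT2, read 7.59 and 7.56 in control and 7.89 and 7.79 with verticillin A. Its treated arrays were the higher pair, but its log2 change of 0.27 ± 0.073 did not pass (adjusted p = 0.085). With the dimmest 50% of genes left out, and with a trended robust prior, it did pass (adjusted p = 0.0257 and 0.0474).

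PYCR1, the mitochondrial reductase that completes proline, read 9.07 and 9.27 in control and 8.52 and 8.59 with verticillin A. The control arrays stood 0.20 apart, less than the distance to the treated arrays, and the gene was 1.53-fold lower (-0.62 ± 0.092, adjusted p = 0.0235). The transsulfuration genes, which carry sulphur from homocysteine to cysteine, did not pass. CBS, the first enzyme, read 4.90 and 5.07 against 4.67 and 4.70 (-0.30 ± 0.084, adjusted p = 0.0902), at levels near the array median. CTH, the second enzyme, read 7.95 and 8.03 against 7.85 and 7.92 (-0.10 ± 0.073, 95% interval -0.29 to 0.08, adjusted p = 0.442).

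**Figure D4:**
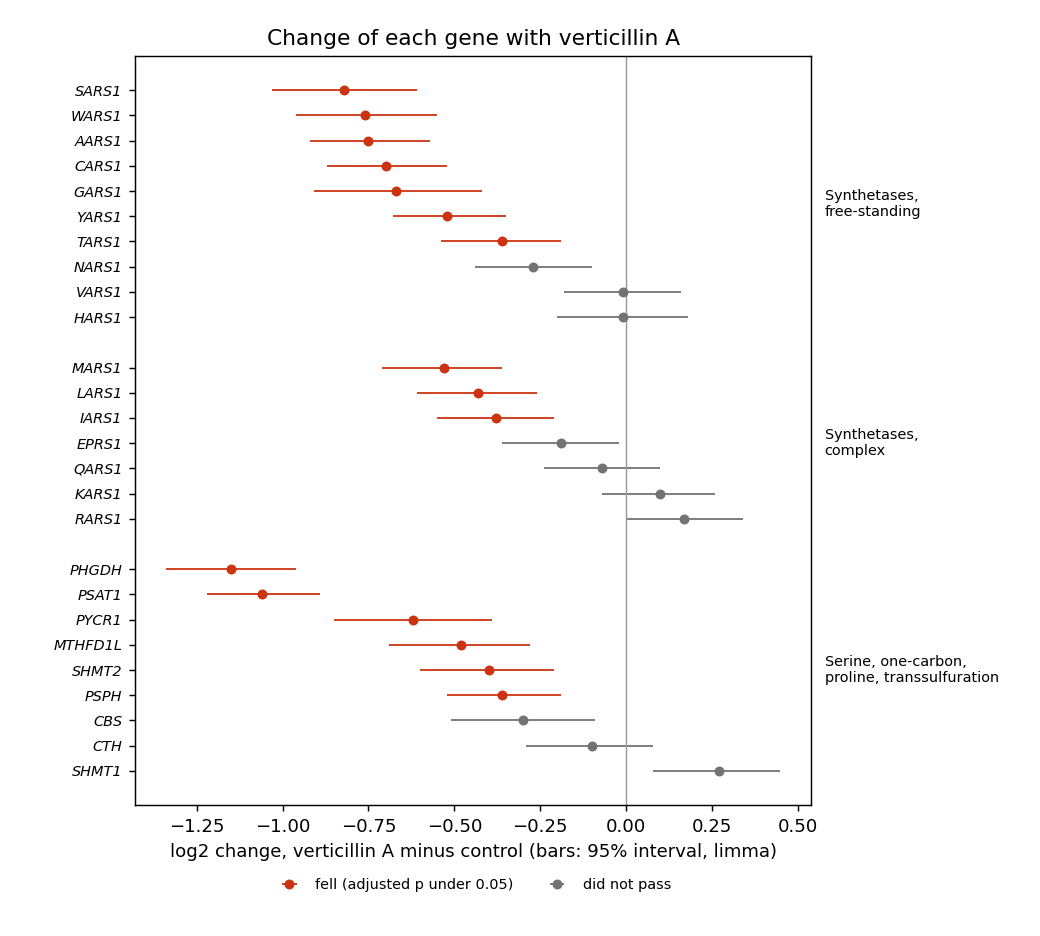
Log2 change of each measured gene (x axis, verticillin A minus control, with its 95% interval from limma) by gene (y axis), in red where the gene fell at an adjusted p under 0.05. The 16 genes that fell range from PHGDH at -1.15 to PSPH at -0.36, and the 10 others from CBS at -0.30 to SHMT1 at 0.27.

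Among the cytosolic synthetases the seryl enzyme gene SARS1 fell furthest. SARS1 read 10.33 and 10.49 in control and 9.57 and 9.62 with verticillin A, a 1.77-fold fall (-0.82 ± 0.082, adjusted p = 0.0113). The tryptophanyl gene WARS1, which interferon is also known to induce, read 8.79 and 8.82 against 7.97 and 8.13 (1.69-fold lower, adjusted p = 0.0125). A second WARS1 probe set, at 3.56 to 3.96 on the arrays, changed by -0.16 ± 0.122 with an unadjusted limma p of 0.247. That dim probe set lies below the array median. With both averaged, the log2 change of WARS1 was -0.46 (adjusted p = 0.0299) in place of -0.76. The alanyl gene AARS1 read 11.28 and 11.35 in control and 10.58 and 10.55 with verticillin A (1.68-fold lower, adjusted p = 0.00961). The cysteinyl gene CARS1 read 8.81 and 8.87 against 8.11 and 8.18 (1.62-fold lower, adjusted p = 0.0114). The groups stood well apart in these genes, by at least 0.63 between the nearest arrays.

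GARS1, which encodes the glycyl enzyme of both cytosol and mitochondria, read 10.85 and 11.07 in control and 10.26 and 10.33 with verticillin A. Its control arrays were the most spread of any of the 26 genes (SD 0.153, n = 2), and it was 1.59-fold lower (adjusted p = 0.022). The tyrosyl gene YARS1 read 9.71 and 9.70 against 9.18 and 9.19, a 1.43-fold fall with almost no spread within groups (adjusted p = 0.0168). The methionyl gene MARS1 read 10.42 and 10.48 against 9.89 and 9.94, a 1.45-fold fall (adjusted p = 0.0179). Smaller falls were those of the leucyl, isoleucyl and threonyl genes. LARS1 read 10.88 and 10.96 in control and 10.48 on both treated arrays (1.35-fold lower, adjusted p = 0.0281). IARS1 read 11.91 and 11.92 against 11.55 and 11.52 (1.30-fold lower, adjusted p = 0.0322). TARS1 read 10.56 and 10.64 against 10.23 and 10.25 (1.29-fold lower, adjusted p = 0.0389). In each of them the treated pair was below the control pair.

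The fall was not found in every synthetase gene. The asparaginyl gene NARS1 read 11.65 and 11.70 in control and 11.39 and 11.42 with verticillin A, a log2 change of -0.27 ± 0.068 that missed the threshold (adjusted p = 0.073) and passed under 2 of the alternative settings, at adjusted p = 0.02 and 0.00215. EPRS1, the bifunctional glutamyl-prolyl enzyme, read 11.08 and 11.01 against 10.85 and 10.87 (-0.19 ± 0.069, adjusted p = 0.158). The arginyl gene RARS1 moved the other way, from 11.0 and 11.04 to 11.18 and 11.21 (0.17 ± 0.067, adjusted p = 0.183). EPRS1 and RARS1 passed only with a trended robust prior (adjusted p = 0.0168 and 0.0186). KARS1, the lysyl enzyme of both cytosol and mitochondria, read 10.55 and 10.56 against 10.63 and 10.67 (0.10 ± 0.067, adjusted p = 0.441). The glutaminyl gene QARS1 had a log2 change of -0.07 with a 95% interval of -0.24 to 0.10. The histidyl and valyl genes HARS1 and VARS1 both had changes of -0.01, with intervals of -0.20 to 0.18 and -0.18 to 0.16, and their groups overlapped. The sign of both turned when arrays were centred on their medians, at 0.03. A fall as large as that of SARS1, AARS1 or CARS1 lies outside the intervals of QARS1, HARS1, VARS1, KARS1 and RARS1.

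In human cells some synthetases sit in a multisynthetase complex and others are free-standing, a grouping applied here after the values were seen and given with no test. Of the 10 measured free-standing synthetases 7 fell, with a median log2 change of -0.59. Of the 7 in the complex 3 fell (MARS1, LARS1 and IARS1), with a median of -0.19, and both synthetase genes with a positive change, KARS1 and RARS1, belong to it. AIMP1, a scaffold protein of the complex, had a log2 change of -0.03 ± 0.074 (adjusted p = 0.872).

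Other genes around these pathways were read against the same background, 5.1% of all genes called lower and 3.55% higher. Their lists, too, were chosen with earlier results of these data known. Of 8 measured genes of tRNA charging and editing (16 listed), 2 fell and 1 rose. SEPSECS, which makes selenocysteinyl-tRNA, fell by 0.54 on the log2 scale and DTD1, a D-aminoacyl-tRNA deacylase, fell by 0.42. GATB, a subunit of the mitochondrial amidotransferase that forms glutaminyl-tRNA, rose by 0.45. Of 15 measured glycine, serine and folate genes 2 fell (13.3%) and 1 rose. Of the serine incorporator genes, SERINC5 and SERINC1 fell by 0.51 and 0.48, while SERINC3 did not pass (-0.15, limma adjusted p = 0.266). SERINC3 was named after its value was seen. TYMS, the thymidylate synthase that uses a one-carbon folate, rose by 0.48. The median over that list was -0.07. Without control replicate 1, control replicate 2 or either verticillin A array, limma called 0 genes of each of these lists.

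Of 15 measured genes of proline, ornithine, glutamate and asparagine metabolism 2 fell (13.3%, against 5.1% of all genes and 8.63% of the brighter ones) and 0 rose, with a median of 0.07. The asparagine synthetase gene ASNS, another known ATF4 target, was 2.67-fold lower, and ASS1, which makes argininosuccinate from citrulline and aspartate, read 9.57 and 9.70 in control and 8.66 on both treated arrays (1.96-fold lower, adjusted p = 0.00797). Neither passed without control replicate 1 or without control replicate 2, and both did without either verticillin A array. The neighbours of PYCR1 in proline metabolism were not called lower. PYCR3, PRODH and OAT had log2 changes of 0.36, 0.14 and 0.20, none past the threshold. PYCR3, PRODH and OAT were named after their values were seen. Of 8 measured genes of methionine, transsulfuration and glutathione metabolism limma called 0, with 2 at an unadjusted p under 0.05 and with a range of -0.24 to 0.12. By a trended robust prior, and with the dimmest 50% of genes left out, 2 of them were called lower.

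Of 18 measured regulators and output genes of the amino acid response (32 listed) 7 fell (38.9%, against 5.1% of all genes and 8.63% of the brighter ones) and 0 rose, with a median log2 change of -0.38. TRIB3, DDIT4, DDIT3 and SESN2 had the largest falls, 3.99-fold to 2.39-fold. ATF4 itself read 10.10 and 10.16 in control and 9.67 and 9.66 with verticillin A, a 1.38-fold fall (-0.47 ± 0.068, adjusted p = 0.0227). IMPACT, a protein that restrains GCN2, was 1.46-fold lower. EIF2AK4, which encodes GCN2, had a log2 change of 0.29 ± 0.066 (adjusted p = 0.0577). ATF4, IMPACT and EIF2AK4 were chosen for naming after their values were seen. Without control replicate 1 or control replicate 2 limma called 0 of the 18, and without verticillin A replicate 1 or 2 it called 4. These genes share their arrays with the synthetase and metabolic genes, and their list was chosen with earlier results of these data known. Their falls are therefore no separate evidence. Whether the falls of the regulators account for those of the synthetase and metabolic genes was not tested.

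**Figure D5:**
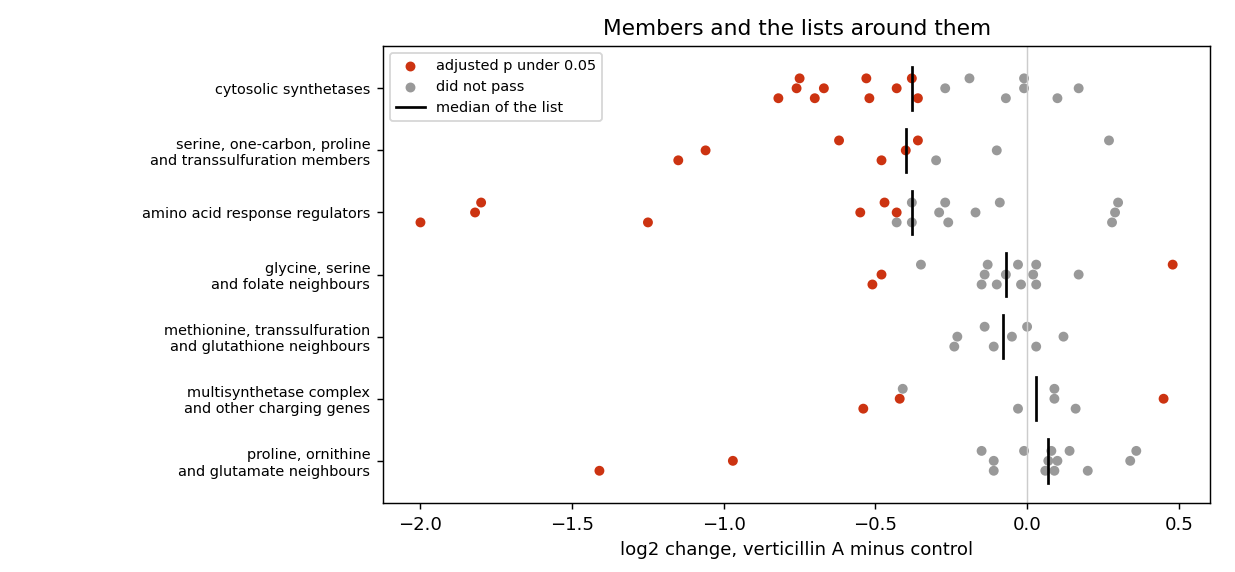
Log2 change (x axis, verticillin A minus control) of every measured gene of each list (y axis), in red where the adjusted p was under 0.05, with a vertical bar at the median of the list. The medians of the synthetases, the metabolic genes and the amino acid response regulators lie at -0.38, -0.40 and -0.38, and those of the 4 other lists between -0.08 and 0.07.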

How the data were processed

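The members and gene lists were chosen with earlier results of these data known. The deposited values are log2 expression, 1 for each probe set on each array, which the authors made with GCRMA per the submitters' processing notes. Its version and filters, the annotation and the build: not given in the sources used here. The log2 scale was read from the range of the deposited values, 2.60 to 14.47. Such normalization hides a change of total RNA per cell, and detection calls were not used, so falls of dim genes can be understated.

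Of 53617 probe sets, the platform annotation names 1 gene for 16098, 0 have several and 37519 are unnamed here. All 16098 matched RefSeq (GRCh38.p14) by gene identifier, giving 14884 genes, 779 with several probe sets, represented by the brightest. Treatment was tested with limma 3.58.1 (R 4.3.3; lmFit, eBayes with a constant prior, 2 residual and 3.43 prior degrees of freedom) on all 4 arrays, without a filter, with Benjamini-Hochberg adjustment over 14884 genes and a threshold of 0.05. Intervals are 95%. The fit was also run on simulated data with independent errors and few changed genes. That setting differs from these data, so the run says nothing about the error rate of the calls here. The number of arrays limits the precision. Per-array values are given for members that passed, their cytosolic or mitochondrial partners and members with an unadjusted p under 0.05, and outside this rule for CTH and KARS1. Up to 4 called genes are named per neighbouring list, and others where the text says that they were chosen after their values were seen. Alternatives were quantile normalization, median centring, leaving out the dimmest 50% of genes, averaging probe sets, a trended robust prior, fitting all probe sets, a replicate block and leaving out each array. A planned protein comparison was not run.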

Additional observations from a re-analysis of the deposited data

How the results depend on the processing

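All 16 genes that fell passed with quantile normalization, median centring, averaged probe sets, the dimmest 50% left out and a trended robust prior. These passes are weak checks, because the 16 were picked on the same arrays, which already had nearly the same distribution. Their log2 changes kept their sign under each alternative run, but only some runs could have turned it. The trended prior, the brightness filter, the fit of all probe sets and the replicate block leave the log2 change as it was. Averaging probe sets could change only that of WARS1 among the 16, and median centring shifted every log2 change by 0.0388. Leaving out 1 array cannot turn the sign of a gene whose groups do not overlap. The replicate numbers in the labels gave no sign of pairing (correlation of deviations 0.0124 across genes). With the replicate number as a block, 10 members passed (7 synthetases and 3 metabolic genes), and PSPH, TARS1, IARS1, LARS1, SHMT2 and MTHFD1L did not, at 364 lower and 228 higher among all genes, 1 lower and 0 higher in the glycine list, and 1 lower and 0 higher in the charging list. With all probe sets fitted, limma called 12 genes lower and 6 higher, 0 members (0 synthetases, 0 metabolic genes), 3 regulators, 1 gene of the proline list, and 0 of the glycine list and 0 of the charging list in either direction, with 3128 genes at an unadjusted p under 0.05. With the dimmest 50% left out it called 1329 lower and 1070 higher, 1 member higher (SHMT1), 12 regulators lower and 3 higher, 2 genes of the methionine list lower and 1 of the proline list higher. With the trended robust prior these were 1360 and 1054, 2 members higher (RARS1 and SHMT1, so 1 synthetase and 1 metabolic gene), 12 and 3, 2 and 1, and 4 genes of the glycine list were lower. Median centring called 668 genes lower and 750 higher, against 759 and 528 without it, so the direction with more calls turned. It moved the median over the members to -0.35 and that of the synthetases to -0.34, called 1 regulator higher, and turned HARS1 and VARS1 to 0.03. VARS1 was 0.005 with averaged probe sets. Leaving out 1 array leaves 1 residual degree of freedom. It gave 0 to 105 genes lower and 0 to 52 higher, 0 to 3 members lower (0 to 1 synthetase, 0 to 2 metabolic genes), 0 to 4 regulators, 0 to 2 of the proline list, and 0 of the glycine and charging lists, while 3715 and 3528 genes reached an unadjusted p below 0.05 without control replicates 1 and 2. The medians ranged from -0.43 to -0.37 over the members and from -0.46 to -0.35 over the metabolic genes. HARS1 ranged from -0.07 to 0.05 and VARS1 from -0.04 to 0.03. The motif count among genes that fell was 7 in the wider window. The causes were not tested.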

Other observations

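GARS1-DT, the divergent non-coding transcript of the GARS1 locus, read 6.11 and 6.14 in control and 6.03 and 5.99 with verticillin A, a log2 change of -0.12 ± 0.067 (SE) with an adjusted p of 0.344 in limma, beside -0.67 for GARS1. A second, dimmer GARS1-DT probe set had a change of 0.08 ± 0.084. TARS3, a further threonyl-tRNA synthetase gene, read 7.51 and 7.78 against 7.69 and 7.70, with a change of 0.05 ± 0.105 (adjusted p = 0.835), beside -0.36 for TARS1. These genes were named after their values were seen, and whether they differ from GARS1 and TARS1 was not tested.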
